A study of Mus musculus with 9 samples.

Results

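The carboxylesterases described here are the 10 genes Ces1c, Ces1d, Ces1e, Ces1f, Ces1g, Ces2a, Ces2c, Ces2e, Ces3a and Ces3b. They were chosen by gene symbol from the 24411 genes of the deposited count table, and all 10 were among the 11199 genes that passed the filter on low counts. Carboxylesterases are serine hydrolases that sit mostly in the lumen of the endoplasmic reticulum. They split ester, amide and thioester bonds in drugs, environmental esters and stored lipids. In the liver, where they are abundant, they are known for turning ester prodrugs into active drugs and for hydrolysing acylglycerols of hepatocytes.

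Messenger RNA was sequenced from whole livers of C57BL/6 mice at 3 months of age, with 3 livers per genotype. The cont. livers carried Atg7flox/flox and no Cre. The Atg7-KO livers carried Atg7flox/flox with Alb-Cre, a recombinase driven by the albumin promoter that acts in hepatocytes. Atg7 is an enzyme required for autophagosome formation, and its state in other liver cells was not measured apart. The S351A livers carried Atg7flox/flox, Alb-Cre and p62 with the S351A change on both alleles, which lowers the binding of p62 to KEAP1. All 3 groups therefore carried the floxed Atg7 alleles. A p62 mutant with intact Atg7 was not analysed here, so the effect of the p62 allele was measured only in livers without hepatocyte Atg7. The genotype field of S351A 2 and S351A 3 differs from their titles in the p62 position, and the titles were followed. The labels number the mice within each genotype and give nothing further on them.

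The libraries held 713841 to 15426575 counts, and each S351A library (at most 792372) was smaller than every other library, so depth and the p62 allele cannot be told apart in the comparison of S351A with Atg7-KO. Atg7 itself was at 45.1, 57.8 and 42.4 CPM (counts scaled to a common library total) in cont. livers. It was at 30.2, 28.0 and 28.4 CPM in Atg7-KO livers and at 21.8, 24.8 and 22.2 CPM in S351A livers, so no Cre library overlapped a cont. library (log2 fold change -0.74, adjusted p = 0.00758, and -1.07, adjusted p = 0.00319, by edgeR). Xist and Y-linked genes read as male in 4 libraries (cont. 1, cont. 3, Atg7-KO 1 and S351A 1) and as female in the other 5. The 6 hepatocyte markers were detected in every group, and their sum spanned 50675 to 111890 CPM over cont. livers, 36117 to 42825 over Atg7-KO livers and 34439 to 46843 over S351A livers. For 6 cholangiocyte markers the sums were, in the same order, 47.5 to 83.3, 819 to 1208 and 720.2 to 1199 CPM. For 5 stellate cell markers they were 230.2 to 486, 905 to 1283 and 872 to 1367 CPM. Their part in the results below was not tested, and in whole liver fewer hepatocytes and less RNA per hepatocyte cannot be told apart.

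The 10 genes lie in clusters on chromosome 8 (GENCODE M21, GRCm38), with the Ces1 genes on the minus strand and the Ces2 and Ces3 genes on the plus strand. Along the chromosome the Ces1 members are Ces1c (chr8:93099015-93131283), Ces1d (chr8:93166068-93197838), Ces1e (chr8:93201218-93229619), Ces1f (chr8:93256236-93279747) and Ces1g (chr8:93302369-93337308). The others are Ces2a (chr8:104734003-104741634), Ces2c (chr8:104847068-104854483), Ces2e (chr8:104926260-104934672), Ces3a (chr8:105048601-105058413) and Ces3b (chr8:105083753-105093929). Their coding sequences were most alike within a family: 95.3% of aligned bases were identical between Ces3a and Ces3b, 83.0% to 84.0% between pairs of Ces2 genes and 74.6% to 81.6% between pairs of Ces1 genes, against 62.2% to 65.9% between families.

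Genes of one cluster moved in opposite directions in Atg7-KO livers, among them Ces1e against Ces1g and Ces2a against Ces2c, which are not adjacent. The 250 bases before the RefSeq start of these 4 genes are therefore shown with those of Ces3b, a gene with a large fall. They are written 5′ to 3′ on the gene's strand, from RefSeq on GRCm38.p6: Ces1e at chr8:93229620-93229869 (minus strand), Ces1g at chr8:93337210-93337459 (minus strand), Ces2a at chr8:104733753-104734002 (plus strand), Ces2c at chr8:104846818-104847067 (plus strand) and Ces3b at chr8:105083505-105083754 (plus strand). The RefSeq starts of Ces1g and Ces3b lie inside the GENCODE genes. Capitals mark each match, on either strand, to the letters TATAAA (of the TATA box), GTTAAT (of the site of HNF1), CAAAGTCCA (of the site of HNF4), AGGTCA (of nuclear receptor sites), TGACNNNGC (of the antioxidant response element) and CCAAT (of the box of that name).
Ces1e: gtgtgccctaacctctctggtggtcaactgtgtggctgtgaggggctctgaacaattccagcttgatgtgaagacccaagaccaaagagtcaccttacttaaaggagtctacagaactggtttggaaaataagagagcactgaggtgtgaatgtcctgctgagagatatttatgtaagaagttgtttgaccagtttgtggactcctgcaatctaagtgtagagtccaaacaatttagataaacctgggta
Ces1g: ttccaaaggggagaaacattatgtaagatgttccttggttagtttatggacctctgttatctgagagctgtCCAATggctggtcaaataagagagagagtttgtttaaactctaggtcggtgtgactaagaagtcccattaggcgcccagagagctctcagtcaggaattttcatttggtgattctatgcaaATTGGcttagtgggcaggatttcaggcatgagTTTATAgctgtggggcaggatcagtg
Ces2a: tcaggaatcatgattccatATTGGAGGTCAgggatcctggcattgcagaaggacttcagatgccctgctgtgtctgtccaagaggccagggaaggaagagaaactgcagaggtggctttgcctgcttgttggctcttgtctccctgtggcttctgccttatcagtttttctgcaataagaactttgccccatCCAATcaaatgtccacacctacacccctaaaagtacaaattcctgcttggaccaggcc
Ces2c: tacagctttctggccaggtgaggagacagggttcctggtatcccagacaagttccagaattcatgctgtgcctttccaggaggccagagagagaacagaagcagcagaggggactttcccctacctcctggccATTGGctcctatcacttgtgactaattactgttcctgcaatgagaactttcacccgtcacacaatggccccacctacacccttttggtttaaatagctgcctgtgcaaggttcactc
Ces3b: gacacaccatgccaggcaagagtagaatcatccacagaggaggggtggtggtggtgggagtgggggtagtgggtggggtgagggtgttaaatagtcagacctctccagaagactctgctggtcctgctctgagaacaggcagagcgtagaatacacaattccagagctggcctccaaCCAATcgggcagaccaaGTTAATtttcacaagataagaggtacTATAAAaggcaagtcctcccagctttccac

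RefSeq promoters were matched for 7 of the 10 genes (Ces1c, Ces1e, Ces1g, Ces2a, Ces2c, Ces2e and Ces3b). TATAAA was found in 2 of the 7. It was on the strand opposite the gene at base 26 before the start of Ces1g, and on the gene's own strand at base 30 before the start of Ces3b. It is in 12.4% of 32851 promoters searched over the same length. GTTAAT was in Ces3b alone among the 7 (6.43% of all promoters). AGGTCA was in Ces2a alone, directly after a CCAAT match on the strand opposite the gene with no shared base (14.0% of all promoters). CCAAT was in 5 of the 7, with 2 matches each in Ces1g and Ces2a, and it is in 33.8% of all promoters. Neither CAAAGTCCA (0.384% of all promoters) nor TGACNNNGC (10.2%) was in any of the 7 windows, and Ces1e and Ces2e held none of the 6 motifs. Over aligned bases the Ces2a and Ces2c windows were 67.5% identical and the Ces1e and Ces1g windows 56.4%. These matches are descriptions of sequence and were not linked to the measured levels by a test.

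Per kilobase of merged exon, Ces3a and Ces1c were the most abundant members in cont. livers, at 1382 ± 850.5 (SD, n = 3) and 940.2 ± 479 CPM per kb. Ces3b followed at 276 ± 162, Ces2a at 176 ± 37.4, Ces1f at 114 ± 29.4 and Ces1e at 101 ± 33.6 CPM per kb. Ces1d was at 64.6 ± 25.9, Ces1g at 56.2 ± 2.32, Ces2c at 36.8 ± 22.7 and Ces2e at 32.6 ± 9.56 CPM per kb. Each gene in this order overlapped the next one over the 3 cont. libraries. In Atg7-KO livers the order began with Ces1c at 464 ± 66.7, Ces1g at 127 ± 11.9 and Ces2c at 78.5 ± 3.30 CPM per kb, and Ces1e was lowest at 4.56 ± 0.882 CPM per kb. There, neighbours in the order were separate between Ces1c and Ces1g, between Ces1g and Ces2c, between Ces2a and Ces1d and between Ces1f and Ces1e, and overlapped elsewhere. In S351A livers Ces1c (480.0 ± 120 CPM per kb), Ces3a (238 ± 114) and Ces1g (116 ± 32.7) came first and Ces1e (14.0 ± 3.61) again last. Neighbours there were separate between Ces1g and Ces2c and between Ces2a and Ces1d. With the longest transcript as the length, Ces2e and Ces2a changed places in Atg7-KO and in S351A, as did Ces3b and Ces1f in Atg7-KO.

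Loss of hepatocyte Atg7 was accompanied by a large fall of most carboxylesterase transcripts and a rise of 2. Between Atg7-KO and cont., 7 of the 10 members fell (Ces1c, Ces1d, Ces1e, Ces1f, Ces2a, Ces3a and Ces3b), Ces1g and Ces2c rose, and Ces2e did not pass the test. Ces2c was lost, leaving 1 member called higher, without any one of cont. 1, cont. 2, Atg7-KO 1, Atg7-KO 2 or Atg7-KO 3. The call of Ces1c (adjusted p = 0.0466 by edgeR) was lost in 14 of 21 alternatives, 7 of which left out cont. 2, cont. 3, S351A 2, S351A 3 or 1 of the Atg7-KO libraries, and 6 members were then called lower. A call here needs an adjusted p under 0.05 in edgeR's quasi-likelihood test and a change over 1.5-fold. Of all 11199 genes tested, 18.1% were called lower, 19.9% higher and 38% in either direction. The median log2 fold change was -1.83 over the members and -0.03 over all genes. The groups did not overlap for 6 members in the lower and 2 in the higher direction, against 24.9% and 26.7% of all genes.

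**Figure D1:**
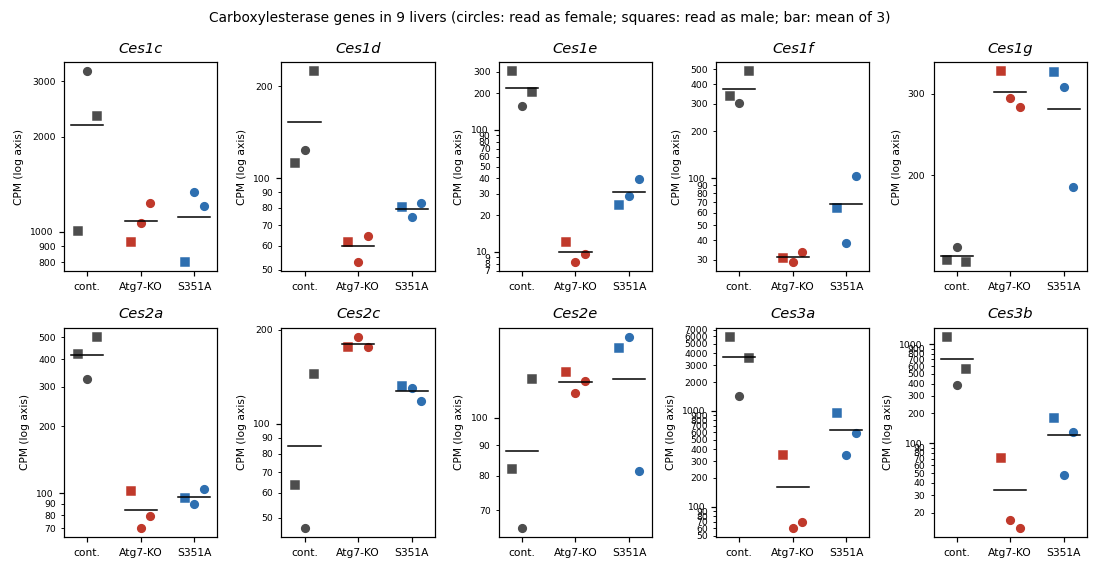
Level of each carboxylesterase gene in CPM (log axis, with its own range in each panel) in the 9 livers, by genotype. Circles are libraries read as female and squares libraries read as male from Xist and Y-linked genes, and bars the mean of 3. The 3 Atg7-KO livers lie below the 3 cont. livers for Ces1d, Ces1e, Ces1f, Ces2a, Ces3a and Ces3b and above them for Ces1g and Ces2c.

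Among the Ces1 genes, Ces1e showed the largest fall. Ces1e encodes egasyn, the esterase that holds beta-glucuronidase in the endoplasmic reticulum. It was at 301, 156 and 206 CPM in cont. livers, at 12.1, 8.26 and 9.61 CPM in Atg7-KO livers and at 24.1, 28.6 and 39.5 CPM in S351A livers. The 3 groups were fully separate, with Atg7-KO lowest, S351A next and cont. highest. Against cont., Ces1e fell by 4.44 on the log2 scale in Atg7-KO (SE 0.31, adjusted p = 1.91e-06), or 21.7-fold, and fell by 2.84 in S351A (SE 0.30, adjusted p = 5.68e-05), or 7.17-fold. The S351A values rest on 21 to 32 counts per library and the Atg7-KO values on 21 to 52.

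Ces1f, a close relative of the lipid-hydrolysing Ces1 enzymes, had the same order of groups. Its level was 338, 302 and 485 CPM in cont. livers, 30.9, 29.1 and 33.9 CPM in Atg7-KO livers and 64.3, 38.5 and 104 CPM in S351A livers. No 2 groups overlapped, and the S351A livers spread most relative to their mean. Ces1f fell by 3.59 on the log2 scale in Atg7-KO (SE 0.33, adjusted p = 1.15e-05) and fell by 2.45 in S351A (SE 0.33, adjusted p = 0.000288), both against cont.

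Ces1d is the triacylglycerol hydrolase that mobilises stored fat for very-low-density lipoprotein. It was at 112, 124 and 223 CPM in cont. livers, at 61.7, 53.1 and 64.5 CPM in Atg7-KO livers and at 80.4, 74.5 and 82.7 CPM in S351A livers. Atg7-KO livers were lowest, S351A livers next and cont. livers highest, without overlap. The fall against cont. was -1.36 in log2 fold change in Atg7-KO (SE 0.26, adjusted p = 0.00138) and -0.96 in S351A (SE 0.26, adjusted p = 0.0175). The S351A call was lost without cont. 3 (log2 fold change -0.58, adjusted p = 0.0451, under the fold threshold), without S351A 1 (adjusted p = 0.0552) or without S351A 2 (adjusted p = 0.0645). It was also lost with total library size (-0.45, adjusted p = 0.170), with that size less the 20 largest genes (-0.55, 0.112) and with the 6 compared libraries alone (-0.88, 0.0729).

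Ces1c encodes the carboxylesterase that rodents secrete into plasma. It was at 1009, 3220.3 and 2323 CPM in cont. livers, at 929, 1069.6 and 1238 CPM in Atg7-KO livers and at 803, 1337 and 1204 CPM in S351A livers. The library cont. 1 lay within the range of both other groups, while cont. 2 and cont. 3 lay above every Cre library. The log2 fold change was -1.02 in Atg7-KO (SE 0.37, adjusted p = 0.0466) and -0.97 in S351A (SE 0.37, adjusted p = 0.0688), of which the first passed the test and the second did not. The S351A value was called with the replicate number as a block (-0.89, adjusted p = 0.0310), with sex as a covariate (-1.15, 0.0160), with no filter (-1.07, 0.0106), with DESeq2 (-0.95, 0.0371) and without cont. 1 (-1.33, 0.00523). The Atg7-KO call was lost in 7 of the 9 fits that left out 1 library, all but those without cont. 1 and without S351A 1. It was also lost with RLE size factors (0.0503), total library size (0.295), that size less the 20 largest genes (0.209), a minimum of 10 counts per library (0.0602), voom (0.0808), the 6 compared libraries alone (0.0772) and thinning (0.0607). Its adjusted p ran from 0.00287 to 0.295 over the alternatives run.

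Ces1g was the Ces1 member that rose. It encodes an esterase that restrains hepatic lipid synthesis and secretion. It was at 132, 141 and 130.4 CPM in cont. livers, which hardly differed from each other, and at 335, 294 and 280.1 CPM in Atg7-KO livers. In S351A livers it was at 334, 310.4 and 189 CPM. All Cre libraries lay above all cont. libraries. Ces1g was 2.26-fold higher in Atg7-KO (log2 fold change 1.18, SE 0.24, adjusted p = 0.002) and 2.07-fold higher in S351A (1.05, SE 0.24, adjusted p = 0.00629).

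The Ces2 genes parted within their family. Ces2a, an enzyme of the family that prefers esters of large alcohols and hydrolyses acylglycerols, was at 421, 325 and 501 CPM in cont. livers. It was at 103, 70.4 and 79.6 CPM in Atg7-KO livers and at 95.4, 89.4 and 105 CPM in S351A livers. Both Cre groups lay far below cont. and overlapped each other. Ces2a fell by 2.30 on the log2 scale in Atg7-KO (SE 0.24, adjusted p = 2.5e-05) and fell by 2.11 in S351A (SE 0.24, adjusted p = 9.93e-05).

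Ces2c, a related acylglycerol-hydrolysing enzyme, was at 63.6, 46.5 and 144 CPM in cont. livers, at 176, 189 and 176 CPM in Atg7-KO livers and at 132, 130.4 and 118 CPM in S351A livers. Atg7-KO livers were above all others, and the S351A livers lay between cont. 1 and cont. 3. Ces2c was 2.10-fold higher in Atg7-KO than in cont. (log2 fold change 1.07, SE 0.33, adjusted p = 0.0233). That call was lost without cont. 1 (adjusted p = 0.0788), cont. 2 (0.0646), Atg7-KO 1 (0.0585), Atg7-KO 2 (0.0681) or Atg7-KO 3 (0.0598), and the value was 1.72 (adjusted p = 0.000157) without cont. 3. In S351A the log2 fold change was 0.56 (SE 0.34, adjusted p = 0.236), and it was called at 1.20 (adjusted p = 0.00272) without cont. 3, the cont. library with the highest Ces2c.

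Ces2e, which hydrolyses pyrethroid esters, was at 82.0, 65.5 and 116 CPM in cont. livers, at 119, 110.2 and 115 CPM in Atg7-KO livers and at 131, 137 and 81.4 CPM in S351A livers. The groups overlapped throughout. Its log2 fold change against cont. was 0.38 in Atg7-KO (95% interval -0.12 to 0.87, adjusted p = 0.257) and 0.40 in S351A (-0.11 to 0.90, adjusted p = 0.274). Scaled by total library size alone, which moved the median of all genes to 0.51 and 0.46, Ces2e was called higher in both, at 0.93 and 0.89, as were 38.3% and 31.2% of all genes.

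The Ces3 genes, liver esterases of closely similar sequence, fell most together with Ces1e. Ces3a was at 5887, 1419 and 3585 CPM in cont. livers, at 349.9, 60.7 and 69.1 CPM in Atg7-KO livers and at 943, 348 and 586 CPM in S351A livers. The highest library of each group was the male library numbered 1, and the lowest cont. library was the only female one. Ces3a fell by 4.50 on the log2 scale in Atg7-KO (SE 0.76, adjusted p = 0.000663), or 22.6-fold, and fell by 2.54 in S351A (SE 0.69, adjusted p = 0.0166), or 5.80-fold. Ces3b was at 1175, 384 and 563 CPM in cont. livers, at 70.5, 16.9 and 14.2 CPM in Atg7-KO livers and at 182, 48.4 and 131 CPM in S351A livers. Cont. livers lay above both Cre groups, which overlapped each other. Ces3b fell by 4.35 on the log2 scale in Atg7-KO (SE 0.69, adjusted p = 0.000445) and fell by 2.55 in S351A (SE 0.64, adjusted p = 0.0109). Without Atg7-KO 1, the male library, the falls in Atg7-KO were larger, at -5.81 for Ces3a (adjusted p = 0.000255) and -5.50 for Ces3b (adjusted p = 0.000295). Both S351A calls were lost without S351A 2, the library with the lowest values (adjusted p = 0.0765 for Ces3a and 0.0510 for Ces3b).

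Because Ces3a and Ces3b were highest in a male library of each group, they were also read within each sex. In male libraries Ces3a averaged 4736 CPM in cont. (n = 2), and the single male library of Atg7-KO and of S351A held 7.39% and 19.9% of that. In female libraries the single cont. library held 1419 CPM, and the means of Atg7-KO and S351A (n = 2 each) were 4.57% and 32.9% of it. Ces3b in male libraries was at 8.12% of cont. in Atg7-KO and 20.9% in S351A, and in female libraries at 4.04% and 23.3%. With sex as a covariate the log2 fold change of Ces3a was -4.17 in Atg7-KO (adjusted p = 8.83e-06) and -1.80 in S351A (adjusted p = 0.00306). That of Ces3b was -4.12 (adjusted p = 2.25e-05) and -2.06 (adjusted p = 0.00307).

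**Figure D2:**
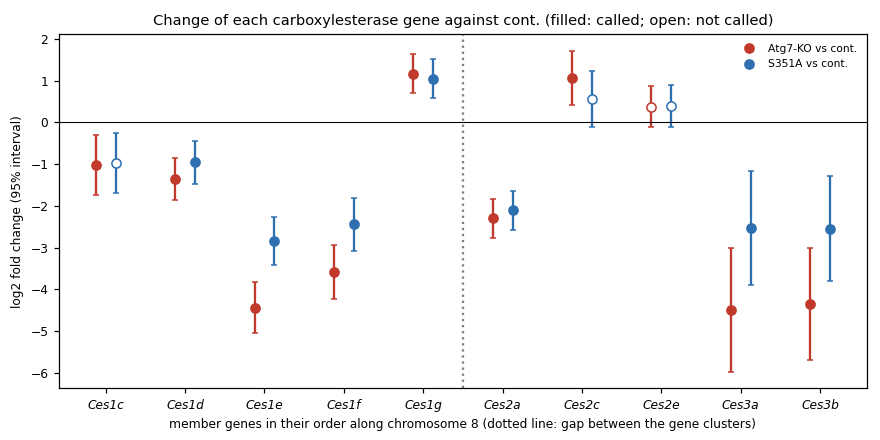
Log2 fold change against cont. of each carboxylesterase gene in Atg7-KO (red) and S351A (blue), in the order of the genes along chromosome 8. Bars are 95% intervals from the SE and the normal quantile. Filled points were called and open points were not. Ces1g and Ces2c lie above 0 in Atg7-KO at 1.18 and 1.07, while Ces1e, Ces3a and Ces3b lie below -4 there.

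Against cont., the S351A livers had 6 members lower (Ces1d, Ces1e, Ces1f, Ces2a, Ces3a and Ces3b), Ces1g higher and 3 that did not pass the test (Ces1c, Ces2c and Ces2e). Without S351A 2 the members called lower were 3, since Ces1d, Ces3a and Ces3b were lost, and without cont. 3 the members called higher were 2. Of all genes tested in that comparison 13% were lower, 15.6% higher and 28.6% called in either direction. The median log2 fold change was -1.54 over the members and -0.03 over all genes. The groups did not overlap for the 6 members that fell, against 18.4% of all genes lower without overlap, and for Ces1g, against 19.6% higher. This comparison and that of Atg7-KO used the same cont. livers.

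Whether the p62 change altered carboxylesterase levels in Atg7-deficient livers is addressed by S351A against Atg7-KO. edgeR's quasi-likelihood test called 0 of the 10 members, and 1 gene of all 11199 (0.00893%). At an unadjusted p under 0.05 it counted 4 members (Ces1e, Ces1f, Ces3a and Ces3b), against 6.6% of all genes. DESeq2 called 1 member, Ces1e (adjusted p = 0.00818), and 0.357% of all genes. The members' median log2 fold change was 0.30 against 0.01 over all genes.

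Ces1e had the smallest p of the members here, with a log2 fold change of 1.60 (SE 0.32, unadjusted p = 0.000301, adjusted p = 0.311 by edgeR). Every S351A library exceeded every Atg7-KO library, 24.1 to 39.5 CPM against 8.26 to 12.1 CPM. The estimates for Ces3a (1.96, 95% interval 0.63 to 3.30, adjusted p = 0.686) and Ces3b (1.80, 0.55 to 3.05, adjusted p = 0.692) were larger with wider intervals, and their groups overlapped through the male library Atg7-KO 1. Without that library the estimates were 3.26 for Ces3a (adjusted p = 0.331) and 2.94 for Ces3b (adjusted p = 0.541). With sex as a covariate the adjusted p of Ces3a was 0.0822, still not called. Ces1f stood at 1.14 (0.50 to 1.78, adjusted p = 0.499). With no filter on low counts, Ces1e (adjusted p = 0.00296), Ces3a (0.00543) and Ces3b (0.00628) were called higher, as were 0.32% of the 19081 genes then tested. After thinning every library to the smallest total, Ces1e stood at 1.67 (adjusted p = 0.317) and none of the members was called.

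The other 6 members were nearer to 0 in S351A against Atg7-KO. The log2 fold change was 0.41 for Ces1d (95% interval -0.12 to 0.93), 0.19 for Ces2a (-0.27 to 0.66) and 0.05 for Ces1c (-0.68 to 0.77). It was 0.02 for Ces2e (-0.49 to 0.52), -0.12 for Ces1g (-0.58 to 0.34) and -0.51 for Ces2c (-1.17 to 0.16). Among all 10 members, Ces1d, Ces1e and Ces1f were higher in every S351A library than in any Atg7-KO library and Ces2c was lower, which makes 4 of 10 without overlap against 16.9% of all genes (7.67% higher and 9.23% lower).

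In cont. livers the members together took 0.630% ± 0.155 of the library (SD, n = 3), while Atg7-KO livers gave them 0.234% ± 0.0223 and S351A livers 0.292% ± 0.0201. Their summed level was 7993 ± 1686 CPM over cont. livers, against 2056 ± 144 over Atg7-KO livers and 2657 ± 125 over S351A livers, with cont. above both Cre groups. Of the summed level per kilobase, the Ces3 genes made up 49.4% ± 22.8 for cont., 8.36% ± 8.12 for Atg7-KO and 25.9% ± 11.9 for S351A. The Atg7-KO mean rests on the male Atg7-KO 1, with a Ces3 part of 17.7% against 3.70% in Atg7-KO 2 and 3.63% in Atg7-KO 3. The Ces1 genes made up 42.9% ± 22.3, 73.4% ± 8.10 and 61.3% ± 11.7, and the Ces2 genes 7.75% ± 1.71, 18.2% ± 0.829 and 12.8% ± 1.05. The leading gene in cont. livers was Ces3a in cont. 1 and cont. 3 and Ces1c in the female cont. 2, in which Ces1c held 54.7% of the summed level per kilobase. The part of Ces1g was 1.82% ± 0.443 for cont., 14.7% ± 1.18 for Atg7-KO and 10.7% ± 2.92 for S351A.

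**Figure D3:**
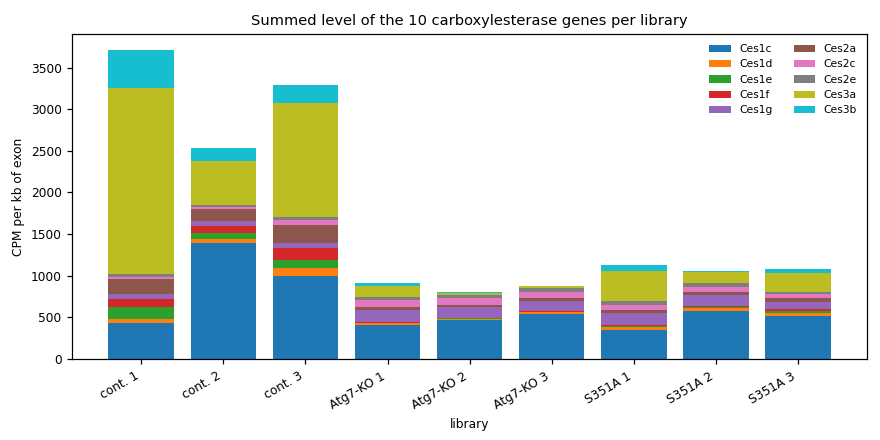
Summed level of the 10 carboxylesterase genes per library, in CPM per kilobase of merged exon, with each gene's part stacked. The cont. livers sum to 2533 to 3713, the Atg7-KO livers to 801 to 906 and the S351A livers to 1058 to 1127.

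Genes of the same family were also compared by the ratio of their counts within a library, which does not depend on the scaling between libraries. Ces1g counts were 0.438 to 0.901 times those of Ces1e for cont., 27.7 to 35.6 times for Atg7-KO and 4.78 to 13.9 times for S351A. Against Ces1f they were 0.269 to 0.464, 8.27 to 10.8 and 1.82 to 8.06 times. Ces2c counts were 0.143 to 0.287 times those of Ces2a for cont., 1.72 to 2.69 times for Atg7-KO and 1.13 to 1.46 times for S351A, so the more frequent gene of the pair was Ces2a in every cont. liver and Ces2c in every Cre liver. The ratio of Ces2e to Ces2a lay between 0.195 and 0.232 for cont., between 1.16 and 1.57 for Atg7-KO and between 0.776 and 1.53 for S351A. Ces3a to Ces3b was similar in all groups, 3.69 to 6.37, 3.60 to 4.96 and 4.48 to 7.18.

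**Figure D4:**
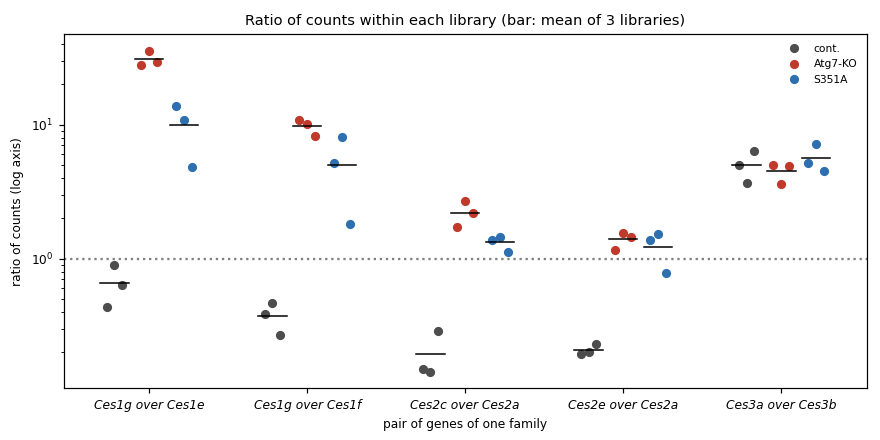
Ratio of counts of gene pairs within each library (log axis), by genotype, with bars for the mean of 3 libraries. Ces1g over Ces1e is below 1 in the 3 cont. livers and at least 27.7 in the 3 Atg7-KO livers, whereas Ces3a over Ces3b overlaps between all groups.

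Reads that fit more than 1 gene limit some of these values. Of the 75-base windows of a member's longest transcript, 25.9% were shared for Ces2c (24.9% with the pseudogene Ces2d-ps), 18.3% for Ces3a and 15.4% for Ces3b (with each other), 14.8% for Ces2a (with Gm7208) and 6.73% for Ces1c (4.85% with Ces1b). The share was 1.05% for Ces1e, 0.343% for Ces2e and 0 for Ces1d, Ces1f and Ces1g. The division of counts between Ces3a and Ces3b, and between Ces2c and Ces2d-ps, is therefore less certain than their sum. Ces2d-ps was at 47.0, 0 and 17.6 CPM in cont. livers and at 0, 4.67 and 0 CPM in Atg7-KO livers. Ces2c and Ces2d-ps were not summed before a fit, so how far their division bears on the rise of Ces2c was not tested. Summing Ces3a and Ces3b before the fit, an alternative chosen after seeing the data, gave a log2 fold change of -4.48 in Atg7-KO (SE 0.75, adjusted p = 0.000629) and -2.54 in S351A (SE 0.69, adjusted p = 0.0156). Ces1d also overlaps Gm45909 and Ces3a overlaps Gm45724 in the annotation, and reads of overlapping genes cannot be told apart without strand.

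Most of the remaining genes of the family were too low to test. Of 10 other Ces genes listed, 9 were in the table (Ces1h was not) and 3 passed the filter. Ces1b was at 207.9, 330.3 and 144 CPM over the cont. livers and 135, 179.8 and 142 over the Atg7-KO livers (log2 fold change -0.57, adjusted p = 0.182). Ces2g rose in Atg7-KO, with 52.7, 52.4 and 54.0 CPM against 21.6, 33.5 and 37.9 CPM in cont. (0.74, SE 0.21, adjusted p = 0.0161) and was at 41.4, 44.7 and 33.3 CPM in S351A (0.33, adjusted p = 0.325). The pseudogene Ces2d-ps was called lower in Atg7-KO (log2 fold change -3.76, adjusted p = 0.0396) with overlapping groups and 5 libraries at 0. Ces1a, Ces2b, Ces2f, Ces2h, Ces4a and Ces5a reached at most 4.45 CPM in any library and were not tested.

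Of 18 other ester and lipid hydrolases listed, 17 were tested, and in Atg7-KO against cont. 7 rose and 4 fell, beside 19.9% and 18.1% of all genes. Their median log2 fold change was 0.42. Those that rose most were Lpl, the lipoprotein lipase (log2 fold change 3.82), Abhd2, a lipid hydrolase (2.63), Pnpla3, a lipid droplet protein (1.77) and Esd, S-formylglutathione hydrolase (1.29). Those that fell were Aadac, an arylacetamide deacetylase of the endoplasmic reticulum (-2.21), Lipc, the hepatic lipase (-1.95), Pon1, the serum paraoxonase (-1.65) and Mgll, the monoacylglycerol lipase (-1.40). In S351A against cont. 4 of the 17 rose and 3 fell, beside 15.6% and 13% of all genes, and none was called between S351A and Atg7-KO by edgeR, where 3 had an unadjusted p under 0.05, beside 6.6% of all genes.

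Of 10 transcription factors known to act on liver metabolic genes, 5 fell and 0 rose by edgeR in each comparison with cont., where 18.1% and 13% of all genes fell and 19.9% and 15.6% rose. At an unadjusted p under 0.05 there were 6 in Atg7-KO and 7 in S351A, all lower, against 47.5% and 41% of all genes in either direction. In Atg7-KO the largest falls were of Nr1i3, the xenobiotic receptor CAR (log2 fold change -2.45), Nr1h4, the bile acid receptor (-1.61), Nr0b2, its target and a corepressor (-1.44) and Ppara, a fatty acid sensor (-1.16). Nr1i3 was at 338, 429 and 152 CPM over the cont. livers, at 49.9, 71.1 and 46.2 over the Atg7-KO livers and at 72.4, 132 and 129.6 over the S351A livers. It was lower in both Cre groups than in any cont. library. Whether these factors bear on the carboxylesterases was not tested.

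Over the 9 libraries the genes most like the members' mean log2 CPM, centred per gene, were Mup3 (Pearson's r = 0.992), Gm2083 (0.991), Car14 (0.986), Echdc1 (0.985) and Cyp4f14 (0.983). Mup3 encodes a major urinary protein, Car14 a carbonic anhydrase, Echdc1 a decarboxylase that repairs a faulty acyl-CoA and Cyp4f14 a fatty acid hydroxylase. The 9 libraries differ in genotype and depth, so these values are descriptions. Within the 6 Cre livers r was 0.915 to 0.988. Among the members, Ces3a and Ces3b were most alike (r = 0.990), then Ces1e and Ces1f (0.968), while Ces1g ran opposite to Ces1f (-0.95) over the same libraries.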

How the data were processed

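The authors sequenced poly(A) RNA from the 9 livers as 75-base single-end reads, using a kit that does not mark strand. Per the labels and the study's methods, reads were trimmed (Trim Galore), mapped to mm10 with STAR and quantified with RSEM, which divides reads that fit several genes. The table deposited by the authors holds expected counts per gene, estimated counts that need not be whole, not normalized. Tool versions and the annotation are not given in the sources used here. Counts were rounded, scaled by TMM and tested with edgeR 4.0.16 (R 4.3.3, quasi-likelihood, filterByExpr with a minimum of 10 counts and 15 in total) in 1 model over 9 libraries and 3 groups. P-values were adjusted by Benjamini-Hochberg over 11199 genes. A gene was called at an adjusted p under 0.05 and over 1.5-fold. DESeq2 1.42.0, limma 3.58.1 (voom), other scalings, filters, covariates, thinning and left-out libraries were alternatives. CPM was computed from the counts with TMM library sizes. A count of 3, the limit that a count of 0 allows, equals 0.269 to 3.73 CPM across libraries and covers counting error only. Levels per kilobase used merged GENCODE M21 exons. Replicates are separately numbered mice of 1 genotype, and p-values measure the spread between them. Same-numbered livers of cont. and S351A deviated together (r = 0.235, 0.175 and 0.160 for numbers 1 to 3), while not every pair with Atg7-KO did (-0.0415 to 0.306). Livers numbered 1 were all male and those numbered 2 all female. Livers of different number ran from -0.265 (cont. 2 with Atg7-KO 1) to 0.212 (cont. 2 with Atg7-KO 3). The latter was above cont. 2 with Atg7-KO 2 (0.0913). No label gives a pairing and these values do not establish one by number, so the replicate block is an alternative only. The steps were tested on simulated counts. The members and the gene lists were chosen with earlier results of these data known. Named genes were the members, Atg7, the other Ces genes, up to 4 called genes per direction of the hydrolase and regulator lists with the largest change in Atg7-KO, and the 5 genes most alike in profile. Library totals, marker lists (hepatocyte, cholangiocyte, macrophage, stellate, endothelial, intestine, pancreas) and sex genes were checked. Summed macrophage markers were at 205 to 299 CPM in cont., 246 to 338 in Atg7-KO and 224 to 251 in S351A, endothelial markers at 92.2 to 176, 126 to 146 and 107 to 137, intestinal markers at 27.3 to 102, 27.1 to 41.3 and 25.3 to 48.1, and pancreatic markers at most 1.15.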

Additional observations from a re-analysis of the deposited data

How the results depend on the processing

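Of 212 values per comparison (the members' log2 fold changes under each alternative and Ces3a with Ces3b summed), 191 kept direction and side of the threshold for Atg7-KO against cont., 194 for S351A against cont. and 193 for S351A against Atg7-KO. In the first 19 lost and 2 gained a call, in the second 8 lost and 10 gained one, and in the third 4 gained a call and 15 changed sign, all 15 uncalled. With total library size, or that size without the 20 largest genes, Ces2c and Ces2e joined Ces1g and 3 members were called higher in S351A against cont. (31.2% and 27.1% of all genes). Ces2e was then called in Atg7-KO too (0.93 and 0.82), and Ces1c was not. These scalings moved the median of all genes to 0.51 and 0.40 in Atg7-KO and to 0.46 and 0.36 in S351A, and the Ces2e values are to be read against those shifts. In S351A against Atg7-KO, members called higher numbered 3 with no filter (0.32% of genes tested) and 1 with DESeq2 (0.357% called). Leaving out 1 library gave 1 to 2 members called higher and 6 to 7 lower in Atg7-KO against cont., and 1 to 2 higher and 3 to 7 lower in S351A against cont. In S351A against Atg7-KO, Ces1c was -0.0031 with total size and -0.0063 with no filter. Ces2e was -0.0415 with total size, -0.0271 without the 20 largest genes, -0.0384 with no filter, -3e-04 under a minimum of 10 counts per library, -0.0117 with voom and -0.0091 after thinning. Leaving out 1 library gave -0.0985 to 0.2344 for Ces1c, -0.1132 to 0.2136 for Ces2e and -0.281 to 0.0847 for Ces1g. The cause of these changes was not tested. With the replicate block, 2 members were higher and 7 lower in Atg7-KO, and 1 higher and 7 lower in S351A against cont., where Ces1c was called (-0.89, adjusted p = 0.0310). The block changed no other call of a member.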
